A study of Homo sapiens with 132 samples.

Results

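The PHLDA genes PHLDA1, PHLDA2 and PHLDA3 and the immediate early response genes IER2, IER3, IER5 and IER5L were followed across 4 gastric cancer cell lines treated with EGF or with antibodies and inhibitors against the EGFR family. These 7 genes were taken by name, as the count rows whose Ensembl identifier carries one of the symbols. They are 7 of the 65217 identifiers that each library lists, and all of them passed the filter on low counts in every cell line. MKN1 and Hs746T cells were left untreated or received EGF (5 ng/ml), cetuximab (Cet, 1 µg/ml, an antibody against EGFR), EGF + cetuximab, trastuzumab (Tra, 5 µg/ml, an antibody against HER2), afatinib (Afa, 0.5 µM, an irreversible kinase inhibitor of the EGFR family) or trastuzumab + afatinib. For MKN7 and NCI-N87 cells, trastuzumab, afatinib, both together and no treatment were used. RNA was taken after 4 h or 24 h, which gives 44 groups of 3 libraries and 132 libraries in all. The study describes MKN1 cells as responsive to cetuximab, NCI-N87 cells as responsive to trastuzumab, and MKN1, MKN7 and NCI-N87 but not Hs746T cells as responsive to afatinib. Medium with 10% serum was used, it was renewed 2 h before treatment, and afatinib was compared with untreated cells, so that its solvent cannot be told apart from it. Each line is a single established line and stands for no class of tumour.

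Immediate early genes are switched on by growth factors within minutes, without new protein synthesis, and many of them are read out by the RAS, RAF, MEK and ERK kinase cascade below EGFR. Their transcripts are short-lived, so that their level follows the activity of the pathway. PHLDA proteins are small proteins built around a pleckstrin homology-like domain that binds membrane phosphoinositides. PHLDA1, also called TDAG51, is linked to cell death and to receptor tyrosine kinase signalling, PHLDA2 is an imprinted gene at 11p15 that restrains placental growth, and PHLDA3 is a p53 target that competes with AKT for phosphoinositides. IER2 is a nuclear protein induced by many growth factors. IER3, also called IEX-1, is an ERK substrate and an NF-kB target that acts on cell survival, and IER5 binds the phosphatase PP2A and the heat shock factor HSF1. IER5L is the paralog of IER5.

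The genes lie on separate stretches of GRCh38 (GENCODE 29). PHLDA1 (ENSG00000139289) is on chromosome 12, 76025447 to 76033932, PHLDA2 (ENSG00000181649) on chromosome 11, 2928273 to 2929455, and PHLDA3 (ENSG00000174307) on chromosome 1, 201464383 to 201469237, all on the minus strand. IER2 (ENSG00000160888) is on chromosome 19, 13150415 to 13154908, and IER5 (ENSG00000162783) on chromosome 1, 181088712 to 181092899, both on the plus strand. IER3 (ENSG00000137331) is on chromosome 6, 30743199 to 30744554, and IER5L (ENSG00000188483) on chromosome 9, 129175552 to 129178262, both on the minus strand. IER5 and IER5L consist of 1 exon. Antisense genes overlap IER3 (IER3-AS1, 551 counts over all libraries) and IER5L (AL158151.1, 1895 counts against 5325 for IER5L). The library kit keeps the strand, but the strand setting of the counting was not given in the sources used here, so the low counts of IER5L are the least certain.

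The RefSeq promoter table (GRCh38.p14) held the start of PHLDA1, IER2, IER5 and IER5L, 4 of the 7 genes. The 250 bases before each start are printed because PHLDA1, IER2 and IER5 fell in 12, 10 and 10 of the 12 comparisons of afatinib or trastuzumab + afatinib with untreated cells outside Hs746T and IER5L in 2 (adjusted p below 0.05, which 15.6% of all gene tests reached with a lower level). Capitals mark the ETS core CCGGAA, read on either strand (TTCCGG on the other one), a motif of ETS factors, of which ERK activates some. Whether this motif takes part in the response to afatinib was not tested, and PHLDA2, PHLDA3 and IER3 had no promoter in the table.
PHLDA1: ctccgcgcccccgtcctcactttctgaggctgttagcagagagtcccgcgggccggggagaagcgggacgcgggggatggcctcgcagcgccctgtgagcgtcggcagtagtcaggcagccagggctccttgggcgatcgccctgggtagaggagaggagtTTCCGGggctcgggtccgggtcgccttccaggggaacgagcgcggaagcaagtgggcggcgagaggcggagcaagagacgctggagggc
IER2: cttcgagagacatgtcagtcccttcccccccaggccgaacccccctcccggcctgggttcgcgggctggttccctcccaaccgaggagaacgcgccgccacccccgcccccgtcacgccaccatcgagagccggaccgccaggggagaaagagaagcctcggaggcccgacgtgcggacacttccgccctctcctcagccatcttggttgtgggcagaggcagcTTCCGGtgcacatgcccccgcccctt
IER5: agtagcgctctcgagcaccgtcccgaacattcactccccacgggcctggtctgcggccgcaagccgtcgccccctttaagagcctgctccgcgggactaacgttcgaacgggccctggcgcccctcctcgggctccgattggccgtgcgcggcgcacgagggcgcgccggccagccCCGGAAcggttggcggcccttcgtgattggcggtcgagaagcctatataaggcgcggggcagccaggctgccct
IER5L: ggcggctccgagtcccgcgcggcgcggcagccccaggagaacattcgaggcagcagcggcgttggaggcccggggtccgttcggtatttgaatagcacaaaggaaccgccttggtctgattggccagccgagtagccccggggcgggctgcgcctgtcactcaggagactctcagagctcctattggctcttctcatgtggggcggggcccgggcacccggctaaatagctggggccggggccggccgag
The windows are chr12:76031777-76032026 (minus strand, within the GENCODE span of PHLDA1), chr19:13150161-13150410 (plus strand), chr1:181088450-181088699 (plus strand) and chr9:129178262-129178511 (minus strand). Counted from the start, CCGGAA lay at -89 to -84 in PHLDA1, at -26 to -21 in IER2 and at -74 to -69 in IER5, and IER5L had no match. Over 250 bases before to 50 after the start, 17.2% of the 35116 promoters in the table hold these letters on either strand. The GC box GGGCGG was found in IER2, IER5L and PHLDA1 and in 45.0% of all promoters. No match to the CArG box of serum response elements, the cAMP response element TGACGTCA, the AP-1 sites TGACTCA or TGAGTCA, the EGR1 sites GCGGGGGCG or GCGTGGGCG, TATAAA, the NF-kB site or the heat shock element was found in these 4 windows, on either strand, which says only that these letters are not in them.

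The libraries held 25832557 to 69434151 counts, with a median of 50725775.5. A library of this depth shows 3 counts as 0.0432 to 0.116 per 1000000 counts of the library before TMM scaling, which covers counting error only. CPM stands for counts per 1000000 counts of the TMM-scaled library. Levels are given below in CPM for replicates 1, 2 and 3 in this order, and differences as log2FC from edgeR's quasi-likelihood test with the Benjamini-Hochberg adjusted p over all genes of the fit. A gene was called regulated by the criteria of the study, an adjusted p below 0.05 and a log2FC above 1 or below -1. "Rose" and "fell" are used for an adjusted p below 0.05. Whether the libraries of compared groups overlapped is given as a description only, since its share over all genes was not counted. The labels call the samples biological triplicates, and the tests measure the spread between these libraries. The replicates of Hs746T cells spread most, with a median deviation of 0.264 log2 units from the mean of the other libraries of the group and up to 0.471 (EGF + cetuximab, 4 h, replicate 1), against medians of 0.203 to 0.244 in the other lines. KRT8, KRT18, KRT19, EPCAM and CDH1 together reached 4312 to 25139.5 CPM in libraries of MKN1, MKN7 and NCI-N87 cells and 438 to 738 CPM in Hs746T cells, where CDH1 was at 0.796 ± 0.216 CPM (SD, n = 3) in untreated cells at 4 h. VIM, CDH2, ZEB1, ZEB2 and FN1 together reached 3097 to 5538 CPM in Hs746T, 599 to 2542 in MKN1, 373 to 708 in MKN7 and 88.4 to 375 in NCI-N87 cells. PTPRC, CD68 and ALB, markers of leukocytes, macrophages and hepatocytes, were near 0, and PECAM1 was at 146 ± 44.6 CPM in untreated Hs746T cells at 4 h against 9.04 ± 4.79 in MKN1 cells. CDH1 was also low in MKN1 cells (1.499 ± 0.644 CPM), where the keratins were high. Whether these differences take part in the results below was not tested.

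All members but IER5L were abundant in untreated cells of every line. Per kb of exon, the scale on which genes can be compared, PHLDA2 had the highest level of the 7 at 4 h in MKN1 (84.7 CPM per kb), NCI-N87 (73.3) and Hs746T cells (136). In MKN7 cells, IER3 was highest with 77.6 CPM per kb and PHLDA2 reached 32.6. IER5L was lowest in every line, from 0.0941 in Hs746T to 0.460 CPM per kb in MKN1 cells. Exon length is the union over annotated transcripts, 955 bases in PHLDA2 and 8069 in PHLDA1, which bears on this order.

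Untreated cells of the lines differed in most members. In bulk RNA, fewer cells with a transcript and less of it per cell cannot be told apart. Of the 84 tests (7 members, 6 pairs of lines, both times), 62 had an adjusted p below 0.05, while 66.5% of all gene tests did, so the members differed between lines about as often as other genes. PHLDA1 was at 128, 104 and 148 CPM in MKN1, 113, 131 and 133 in MKN7, 202, 212 and 139 in NCI-N87 and 151, 146 and 139 in Hs746T cells at 4 h. Neighbouring lines overlapped, and between neighbours in the order of the means (MKN7, MKN1, Hs746T, NCI-N87) no difference passed the test, with adjusted p of 0.981, 0.394 and 0.126. PHLDA2 was highest in Hs746T cells (159, 118 and 111 CPM) and lowest in MKN7 cells (31.9, 26.6 and 35.0 CPM), log2FC -2.05 for MKN7 against Hs746T. In between, MKN1 and NCI-N87 cells did not differ past the test at 4 h (80.8 ± 9.68 and 70.0 ± 7.31 CPM, adjusted p = 0.400). At 24 h all 7 members, PHLDA1 among them, differed between MKN1 and MKN7 cells, beside 14727 of 22832 genes. Of these members, 5 were higher and 2 lower in MKN1 cells.

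PHLDA3, the p53 target, had its highest level in NCI-N87 cells and its lowest in MKN7 cells. It was at 105, 137 and 126 CPM in NCI-N87 and at 19.4, 14.3 and 15.6 CPM in MKN7 cells at 4 h (log2FC -2.90 for MKN7 against NCI-N87, adjusted p = 1.99e-29). MKN1 (46.7 ± 4.05 CPM) and Hs746T (45.6 ± 1.66 CPM) had close means at 4 h (adjusted p for the difference = 0.856). The NCI-N87 libraries lay above those of all other lines at either time.

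The IER genes followed other orders, given in this paragraph for 4 h. IER2 had similar means in Hs746T (79.7 ± 2.97 CPM) and NCI-N87 cells (75.4 ± 13.9, adjusted p = 0.606). The means were lower in MKN1 (50.8 ± 1.87) and MKN7 cells (47.1 ± 4.58), between which no difference passed the test (adjusted p = 0.494), while at 24 h IER2 did differ between them. IER3 was low in MKN1 cells (26.3, 31.6 and 28.5 CPM), below every untreated library of MKN7 (118, 83.5 and 114), NCI-N87 (60.8, 89.7 and 84.8) and Hs746T cells (92.5, 69.9 and 64.0). The other 3 lines overlapped in IER3, and the adjusted p for their pairs was 0.147 (MKN7 and NCI-N87), 0.0957 (MKN7 and Hs746T) and 0.864 (NCI-N87 and Hs746T). The IER5 level decreased in the order MKN1 (149 ± 4.19 CPM), MKN7 (100.3 ± 13.6), Hs746T (79.5 ± 6.49) and NCI-N87 (53.8 ± 6.04), and each neighbour differed, with adjusted p of 0.000190, 0.0279 and 0.000213. The call between MKN7 and Hs746T was lost with library size alone (adjusted p = 0.103) and without replicate 1 (0.196), 2 (0.0737) or 3 (0.0546), so the order of these lines is not firm. MKN1 cells thus had the lowest IER3 and the highest IER5 level of the lines. IER5L was highest in MKN1 cells (1.33, 1.30 and 1.11 CPM) and lowest in Hs746T cells (0.168, 0.214 and 0.384 CPM, log2FC 2.29 for MKN1 against Hs746T), where single libraries held 2 to 30 counts. Between NCI-N87 (0.920 ± 0.254 CPM) and MKN1 cells the adjusted p was 0.128.

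**Figure D1:**
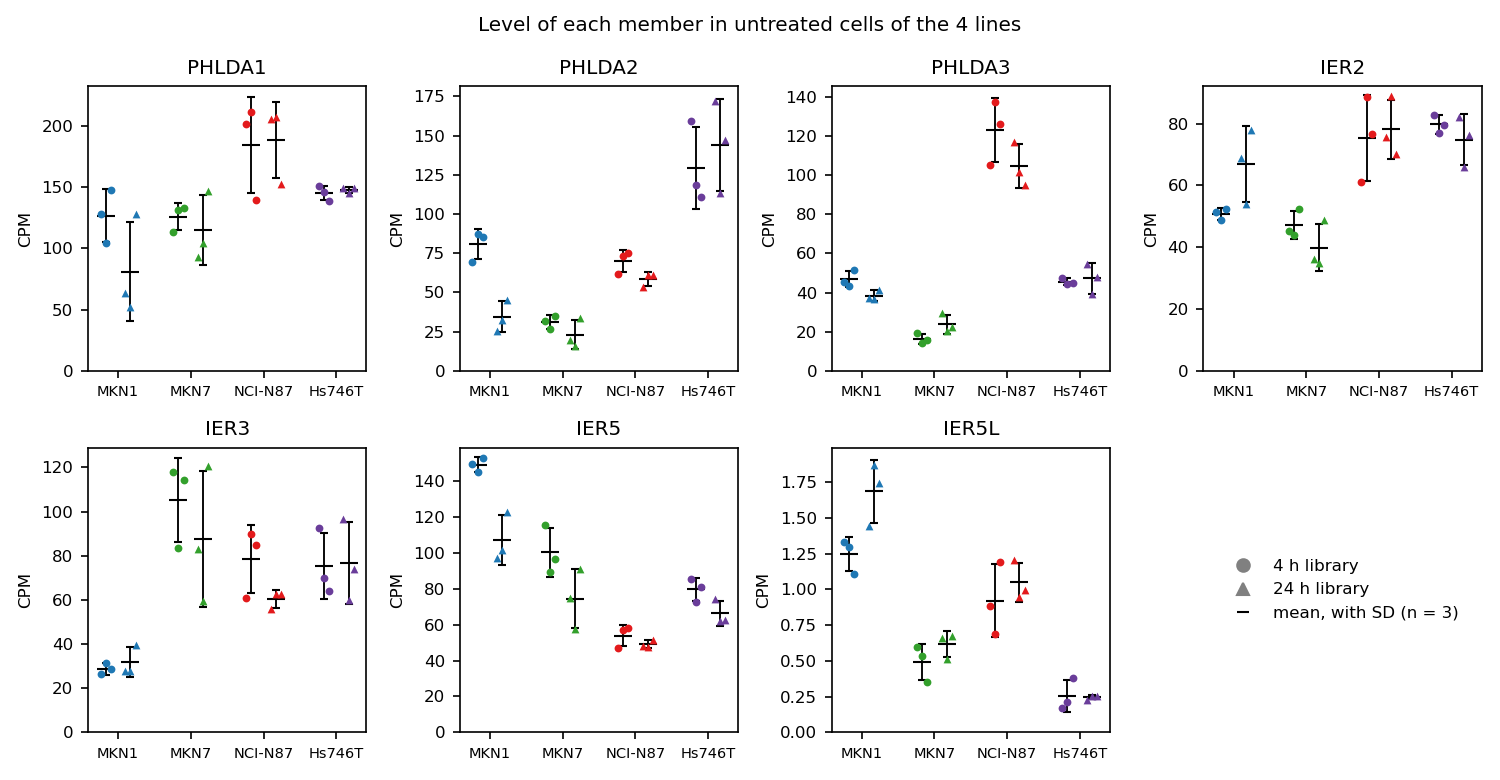
Level (CPM, linear axis from 0) of each member in untreated cells of MKN1, MKN7, NCI-N87 and Hs746T, circles for 4 h and triangles for 24 h libraries, with the mean and SD of 3 libraries. PHLDA2 was highest in Hs746T, PHLDA3 in NCI-N87, and IER3 lowest in MKN1 cells.

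The targets of the drugs were measured in the same libraries. ERBB2, the target of trastuzumab, was at 11532 ± 369.8 CPM in NCI-N87 and 3825 ± 187 in MKN7 cells, against 132 ± 20.7 in MKN1 and 83.7 ± 5.01 in Hs746T cells (untreated, 4 h, SD, n = 3). EGFR was at 635 ± 85.5 CPM in MKN7, 441 ± 46.3 in MKN1, 271 ± 11.6 in Hs746T and 184 ± 40.3 in NCI-N87 cells. MET, a receptor outside the EGFR family, was at 4391 ± 723 CPM in Hs746T cells against 175 ± 9.38 in MKN1 cells. ERBB3 was highest in NCI-N87 cells (69.1 ± 2.67 CPM) and lowest in Hs746T cells (0.881 ± 0.172). ERBB4 was at 5.53 ± 0.682 CPM in MKN7 cells and at or below 1.04 ± 0.0525 in the other lines.

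Between the times, 1 member was regulated in untreated cells, in MKN1. PHLDA2 went from 69.7, 87.5 and 85.3 CPM at 4 h to 25.7, 32.6 and 45.1 CPM at 24 h (log2FC -1.25, SE 0.18, adjusted p = 2.04e-06). It was the 1 member regulated, beside 1.8% of all genes regulated downwards. PHLDA1 was at 63.2, 52.3 and 128 CPM at 24 h. The 24 h libraries of PHLDA1 spread widely and overlapped with those at 4 h (log2FC -0.67, SE 0.27, adjusted p = 0.0537), and without replicate 3 the log2FC was -1.02 (adjusted p = 0.00149). IER5 fell with a log2FC of -0.50, adjusted p = 0.000339 and IER2 rose with 0.38, adjusted p = 0.0237. In MKN7, NCI-N87 and Hs746T cells, 0 of 21 member tests were regulated in edgeR, 4 had an unadjusted p under 0.05, and DESeq2 called 0, while 0.638% of all gene tests were regulated. The rise of PHLDA3 in MKN7 cells (log2FC 0.51, adjusted p = 0.0398) stayed below the fold change limit.

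Over all treatments and both times, PHLDA1 was the member that spread most in MKN1 and MKN7 cells. It ranged from 13.8 to 392 CPM over 42 MKN1 libraries (median 58.4), from 10.9 to 147 over 24 MKN7 libraries (median 50.5) and from 39.7 to 212 over 24 NCI-N87 libraries (median 97.6). In 42 Hs746T libraries it stayed between 117 and 163 CPM (median 142). IER3 ranged from 5.98 to 70.3 CPM in MKN1 and from 54.9 to 105 CPM in Hs746T cells. The coefficient of variation over all libraries of a line was 100.1% for PHLDA1 and 69.3% for IER3 in MKN1 cells, against 6.77% and 18.2% in Hs746T cells.

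EGF raised PHLDA as well as IER genes in MKN1 cells. At 4 h, PHLDA1 went from 128, 104 and 148 to 369, 308 and 392 CPM (log2FC 1.501, SE 0.27, adjusted p = 0.000265). IER3 went from 26.3, 31.6 and 28.5 to 58.1, 70.3 and 50.2 CPM (log2FC 1.06, SE 0.29, adjusted p = 0.0189). In both genes every EGF library lay above every untreated one. These 2 of 7 members were regulated upwards, beside 1.23% of all genes. The call of IER3 was lost without 1 of the replicates, with an adjusted p of 0.250 without replicate 1 and 0.0542 without replicate 3, and scaled by library size only it had a log2FC of 0.95.

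Of the other members, 3 rose by less than the fold change limit. PHLDA2 reached 148, 164 and 154 CPM (log2FC 0.95, adjusted p = 0.000426), which became 1.01 without replicate 3. IER2 reached 82.8, 86.2 and 89.5 CPM (log2FC 0.77, adjusted p = 9.35e-05) and IER5 224, 226 and 221 CPM (log2FC 0.60, adjusted p = 0.000165), with EGF and untreated libraries apart in each of the 3 genes. PHLDA3 (log2FC 0.21, adjusted p = 0.478) and IER5L (-0.24, adjusted p = 0.551) did not pass the test, and their groups overlapped.

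After 24 h of EGF, PHLDA1 and PHLDA2 were regulated and IER2 was back in the untreated range. PHLDA1 stood at 229.8, 183 and 263 CPM against 63.2, 52.3 and 128 in untreated cells (log2FC 1.49, SE 0.27, adjusted p = 6.27e-05). PHLDA2 stood at 79.7, 105 and 83.3 against 25.7, 32.6 and 45.1 CPM (log2FC 1.39, SE 0.18, adjusted p = 3.83e-07). These were the 2 members regulated upwards, beside 2.11% of all genes. IER2 was at 67.5, 59.0 and 66.1 CPM, within the range of the untreated libraries (68.9, 53.9 and 78.02 CPM, log2FC -0.04). Its EGF effect at 24 h minus that at 4 h was -0.81 (SE 0.18, adjusted p = 0.00404), the 1 member of 7 with a different effect between the times, while 9.46% of all genes differed. Without replicate 1 this adjusted p was 0.144. IER3 rose with a log2FC of 0.75, adjusted p = 0.0412 and IER5 with 0.40, adjusted p = 0.00289, while IER5L fell with -0.47, adjusted p = 0.0266. When libraries were scaled by their size alone, the all-gene median log2FC moved by -0.11 at 4 h and -0.20 at 24 h, and took the share of regulated genes that rose from 83.3% to 67.1% at 4 h and from 25.3% to 11.8% at 24 h.

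Cetuximab alone lowered PHLDA1 and IER3 most in MKN1 cells. PHLDA1 fell from 128, 104 and 148 to 25.3, 36.9 and 27.3 CPM at 4 h (log2FC -2.09, SE 0.28, adjusted p = 2.03e-05) and from 63.2, 52.3 and 128 to 21.9, 25.2 and 23.7 CPM at 24 h (log2FC -1.80, SE 0.28, adjusted p = 0.000112). IER3 fell to 8.39, 15.6 and 7.92 CPM at 4 h (log2FC -1.44, SE 0.30, adjusted p = 0.00528) and from 27.6, 28.0 and 39.6 to 12.1, 10.1 and 10.9 CPM at 24 h (log2FC -1.54, SE 0.30, adjusted p = 0.00116). Cetuximab and untreated libraries did not overlap in either gene. These 2 of 7 members were regulated at each time, beside 0.257% of all genes regulated downwards at 4 h and 0.328% at 24 h. The call of IER3 was lost at 4 h without replicate 1 (adjusted p = 0.225) or replicate 3 (0.127) and at 24 h without replicate 3 (0.0558).

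PHLDA2, IER2 and IER5 fell after cetuximab within the fold change limit at both times. At 4 h, PHLDA2 was at 49.1, 54.8 and 43.3 CPM (log2FC -0.73, adjusted p = 0.0286), IER2 at 29.6, 38.3 and 34.1 (log2FC -0.58, adjusted p = 0.0118) and IER5 at 98.3, 113 and 92.8 (log2FC -0.56, adjusted p = 0.00150). At 24 h, their log2FC was -0.74, adjusted p = 0.00789 for PHLDA2, -0.49, adjusted p = 0.0117 for IER2 and -0.72, adjusted p = 5.06e-05 for IER5. PHLDA3 and IER5L did not pass the test, with log2FC of 0.09 and 0.03 at 4 h and -0.11 and -0.41 at 24 h.

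When EGF and cetuximab were given together, PHLDA1, PHLDA2 and IER3 stood closer to EGF than to cetuximab alone. PHLDA1 was at 289, 228 and 315 CPM at 4 h, above every untreated library (log2FC 1.14, SE 0.27, adjusted p = 0.0314). IER2 rose within the fold change limit (log2FC 0.66, adjusted p = 0.00605). PHLDA1 was the 1 member regulated, beside 0.101% of all genes. The call of PHLDA1 was lost without replicate 1 (adjusted p = 0.613), without replicate 2 (0.301) and with library size alone (0.0625). At 24 h PHLDA1 was at 139.7, 109.5 and 137 CPM and PHLDA2 at 61.0, 64.4 and 64.7 CPM. PHLDA2 rose (log2FC 0.88, adjusted p = 0.000728) within the fold change limit and PHLDA1 did not pass the test (0.67, adjusted p = 0.0795). Without replicate 3, where the untreated library was high, both were regulated, with log2FC of 1.10 and 1.11. IER3 (0.07, adjusted p = 0.903) and IER2 (-0.32, adjusted p = 0.0795) did not pass the test at 24 h, and IER5L fell (-0.47, adjusted p = 0.0418). At 24 h edgeR thus called 0 of 7 members regulated, 4 had an unadjusted p under 0.05 and DESeq2 called 0, while 3.38% of all genes were regulated.

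Tested directly, EGF + cetuximab against EGF gave 0 regulated members of 14 tests in edgeR, 8 with an unadjusted p under 0.05, and 0 in DESeq2, while 0.141% of all gene tests were regulated. The largest difference was PHLDA1 at 24 h (log2FC -0.82, SE 0.27, adjusted p = 0.191), where the libraries did not overlap. IER3 followed with -0.68 (SE 0.29) at 24 h. At 4 h the largest difference among the 6 abundant members was PHLDA2 with -0.40 (SE 0.18).

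**Figure D2:**
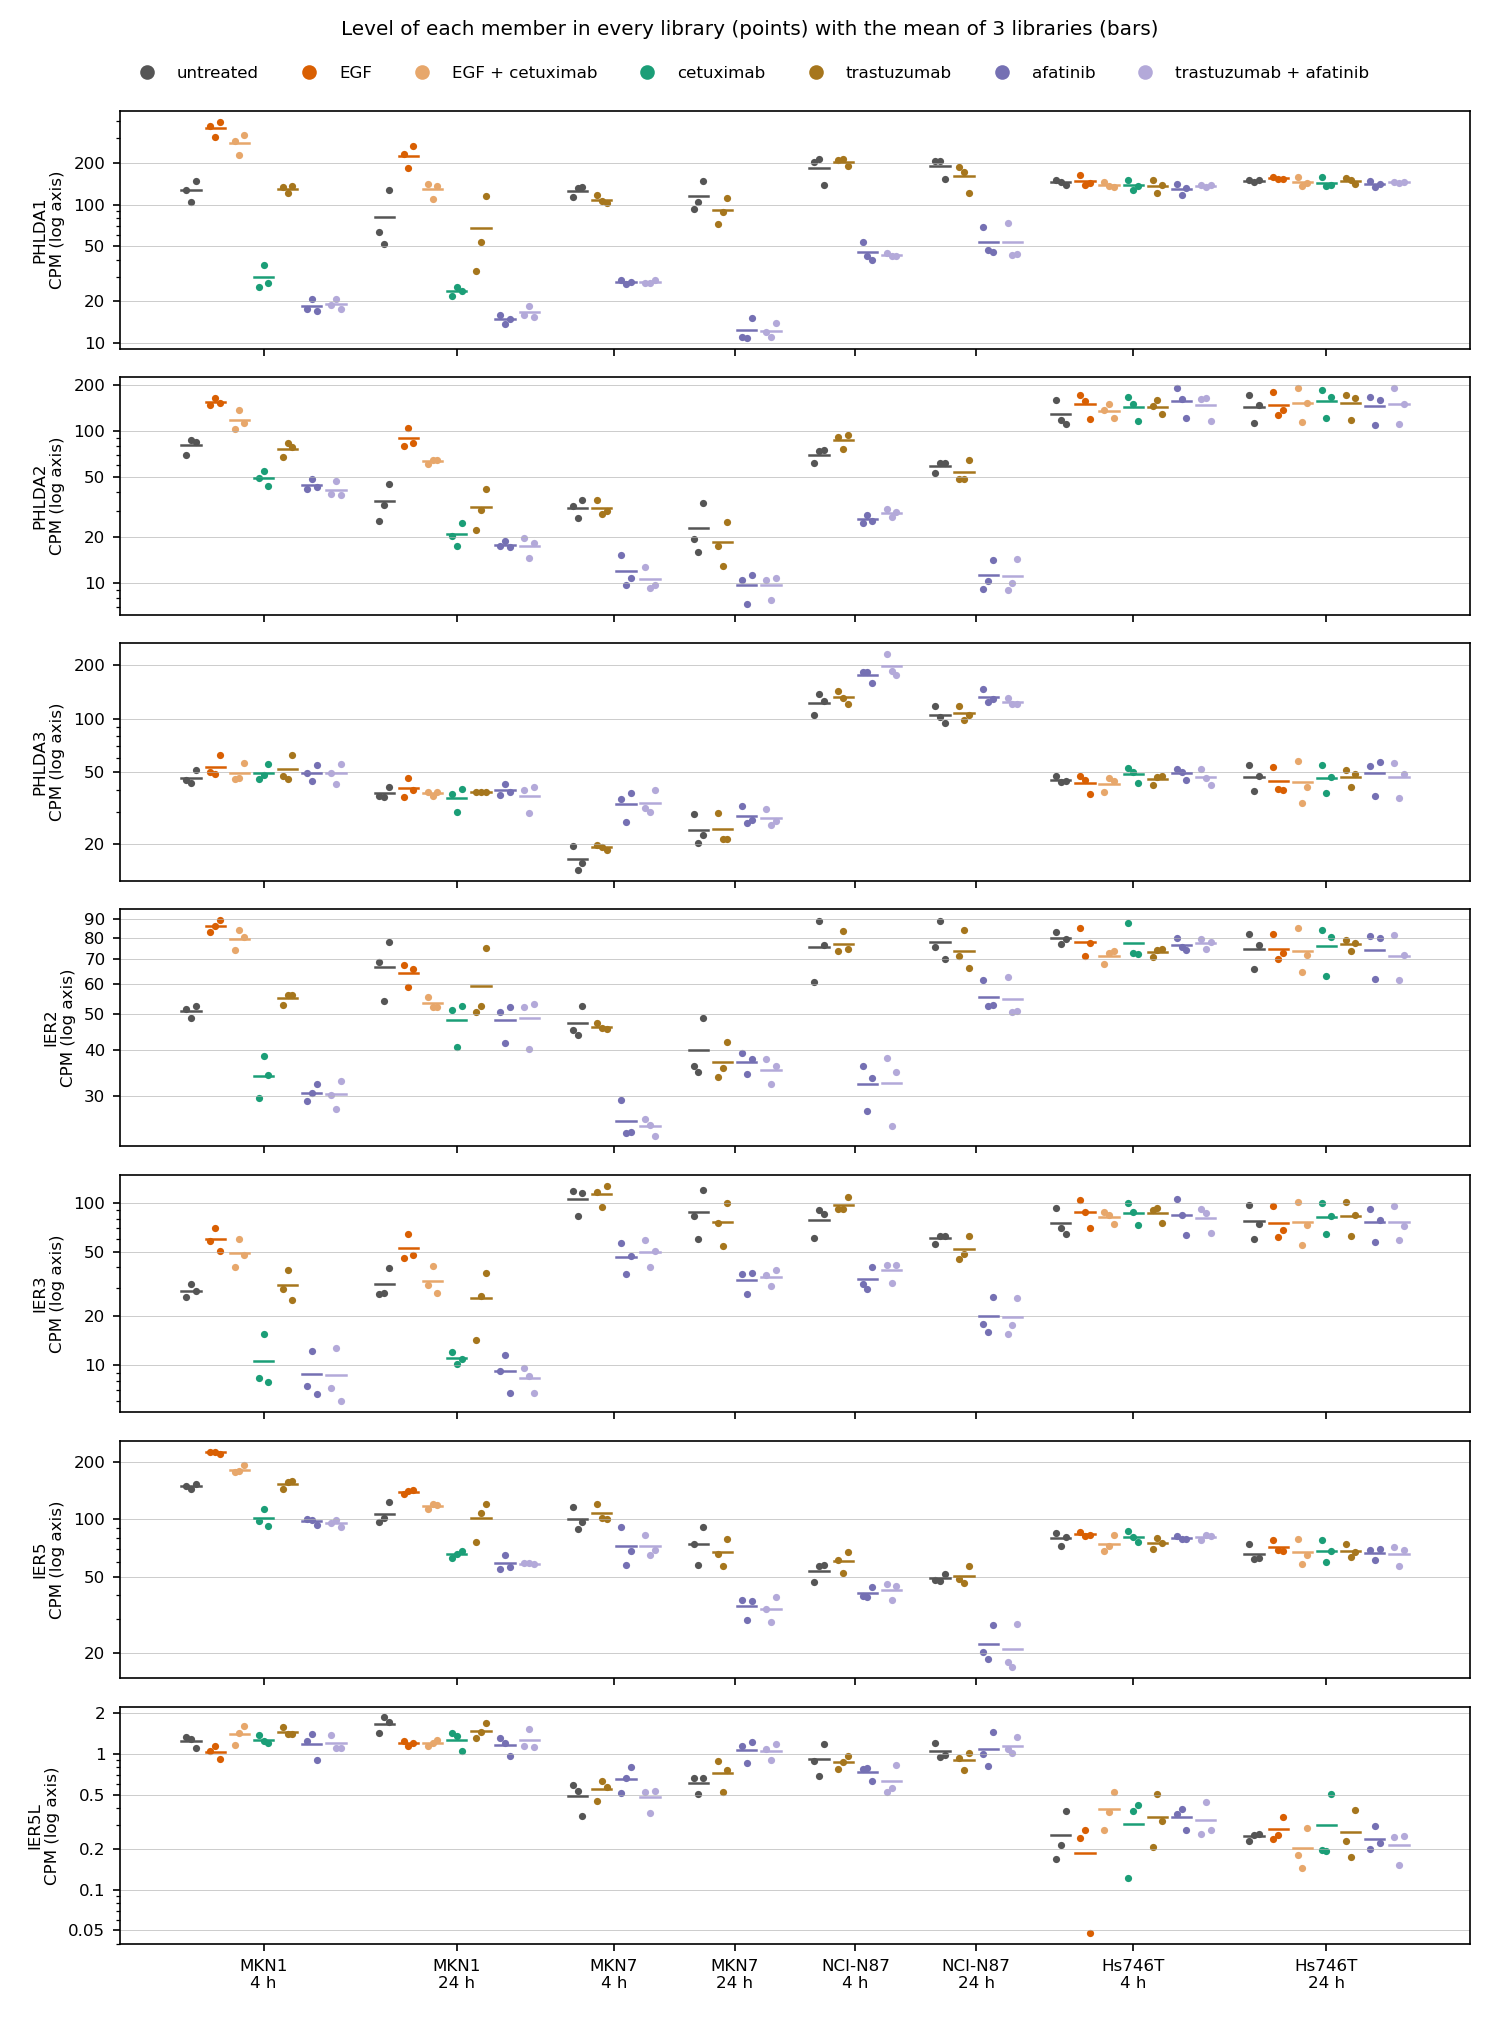
Level (CPM, log axis) of each member in all 132 libraries, grouped by cell line and time and coloured by treatment, with points for libraries and bars for the mean of 3 libraries. PHLDA1 and IER3 spread over treatments in MKN1, MKN7 and NCI-N87 cells, while the treatments of Hs746T cells lie close together.

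Afatinib lowered 5 of the 7 members, PHLDA1, PHLDA2, IER2, IER3 and IER5, in MKN1, MKN7 and NCI-N87 cells, each at 1 time or both. Over the 3 lines and all 7 members, 14 of 21 tests at 4 h and 15 of 21 at 24 h gave a lower level with an adjusted p below 0.05, beside 7.75% and 23% of all gene tests. At 4 h PHLDA1 had the lowest log2FC of the 7. In MKN1 cells it went from 128, 104 and 148 to 17.6, 20.7 and 17.2 CPM at 4 h (log2FC -2.79, SE 0.29, adjusted p = 9.47e-08). In MKN7 cells it went from 113, 131 and 133 to 28.7, 26.9 and 27.8 CPM (log2FC -2.22, SE 0.16, adjusted p = 4.06e-09). In NCI-N87 cells it went from 202, 212 and 139 to 53.5, 42.9 and 39.7 CPM (log2FC -2.02, SE 0.22, adjusted p = 7.40e-07). All afatinib libraries lay below all untreated ones in each line.

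At 24 h PHLDA1 stood at 16.0, 13.8 and 15.05 CPM in MKN1 (log2FC -2.46, SE 0.29, adjusted p = 2.70e-07), 11.2, 10.9 and 15.1 in MKN7 (log2FC -3.22, SE 0.17, adjusted p = 3.14e-11) and 68.3, 47.3 and 45.2 in NCI-N87 cells (log2FC -1.84, SE 0.21, adjusted p = 1.67e-07). The fall was deeper at 24 h in MKN7 cells, where the effect at 24 h minus that at 4 h was -0.9999 (SE 0.22, adjusted p = 0.00342, and 0.0569 without replicate 2). In MKN1 (0.34, adjusted p = 0.773) and NCI-N87 cells (0.17, adjusted p = 0.686) the difference between the times did not pass the test. PHLDA1 was regulated in all 12 comparisons of afatinib or trastuzumab + afatinib with untreated cells of the 3 lines, with log2FC between -3.22 and -1.84.

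PHLDA2, the imprinted member, fell in the same 12 comparisons and was regulated in 9. At 4 h it went from 31.9, 26.6 and 35.0 to 15.4, 9.77 and 10.8 CPM in MKN7 (log2FC -1.42, SE 0.26, adjusted p = 0.000372) and from 61.7, 73.4 and 75.1 to 25.0, 28.2 and 25.5 CPM in NCI-N87 cells (log2FC -1.41, SE 0.16, adjusted p = 1.46e-06). In MKN1 cells it fell to 41.3, 48.4 and 43.1 CPM within the fold change limit (log2FC -0.89, SE 0.18, adjusted p = 0.00236). The PHLDA2 libraries of afatinib and untreated cells did not overlap in any line. At 24 h the fall in NCI-N87 cells was the deepest of the 7 members in that line, from 53.3, 61.3 and 61.2 to 9.19, 10.4 and 14.2 CPM (log2FC -2.42, SE 0.17, adjusted p = 5.88e-11). The effect at 24 h minus that at 4 h was -1.003 (SE 0.22, adjusted p = 0.00140, and 0.0667 without replicate 2). In MKN7 cells PHLDA2 stood at 10.6, 7.32 and 11.3 CPM (log2FC -1.25, adjusted p = 0.000397) and in MKN1 cells at 17.5, 18.8 and 17.3 CPM (log2FC -0.97, adjusted p = 0.000189), and the MKN1 value passed the limit without replicate 1 (-1.13) or replicate 2 (-1.03).

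PHLDA3, unlike the rest of its family, rose in MKN7 and NCI-N87 cells. In MKN7 cells it rose from 19.4, 14.3 and 15.6 to 35.6, 26.4 and 38.2 CPM after 4 h afatinib (log2FC 0.99, SE 0.17, adjusted p = 0.000164), and all afatinib libraries lay above all untreated ones. This log2FC was just below the limit and passed it with library size alone (1.06), with no filter (1.03), with a minimum of 10 counts in every library (1.00), without replicate 1 (1.08) and without replicate 2 (1.04). In NCI-N87 cells PHLDA3 rose from 105, 137 and 126 to 182, 182 and 159 CPM (log2FC 0.51, SE 0.12, adjusted p = 0.00316), also without overlap. In MKN1 cells it was at 49.9, 44.8 and 54.8 against 45.4, 43.6 and 51.3 CPM, with overlap (log2FC 0.08, adjusted p = 0.889). At 24 h the log2FC was 0.31, adjusted p = 0.0245 in NCI-N87 cells and did not pass the test in MKN7 cells (0.25, adjusted p = 0.215), where the effect at 24 h differed from that at 4 h by -0.74 (adjusted p = 0.0310, between 0.0549 and 0.233 when a replicate was left out).

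IER2 showed a fall at 4 h that was smaller at 24 h in MKN7 and NCI-N87 cells. In NCI-N87 cells it went from 60.9, 88.6 and 76.7 to 36.1, 27.3 and 33.5 CPM at 4 h (log2FC -1.22, SE 0.15, adjusted p = 6.21e-06) and from 75.6, 88.8 and 70.2 to 61.6, 52.6 and 52.7 CPM at 24 h (log2FC -0.52, SE 0.15, adjusted p = 0.00483). The libraries did not overlap at either time. Without replicate 2 the 4 h log2FC was -0.99, at the edge of the limit. In MKN7 cells IER2 fell from 45.1, 43.8 and 52.3 to 29.3, 23.8 and 23.9 CPM at 4 h (log2FC -0.92, SE 0.12, adjusted p = 8.32e-06), and without replicate 1 this log2FC was -1.04. At 24 h it was at 39.3, 34.4 and 37.7 against 36.1, 34.7 and 48.6 CPM, with overlap (-0.11, adjusted p = 0.457). The effects at 24 h and 4 h differed by 0.81 in MKN7 (SE 0.17, adjusted p = 0.00194) and 0.69 in NCI-N87 cells (SE 0.21, adjusted p = 0.0153, and 0.119 without replicate 3). In MKN1 cells IER2 fell from 51.3, 48.7 and 52.3 to 29.1, 30.5 and 32.2 CPM at 4 h (log2FC -0.75, adjusted p = 0.000407) and with -0.50, adjusted p = 0.00457 at 24 h.

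IER3, the ERK substrate, was regulated in all 12 comparisons with afatinib in the 3 lines, like PHLDA1 but less deeply. It fell from 26.3, 31.6 and 28.5 to 7.48, 12.2 and 6.68 CPM in MKN1 (log2FC -1.73, SE 0.30, adjusted p = 0.000384), from 118, 83.5 and 114 to 56.4, 36.4 and 47.1 in MKN7 (log2FC -1.21, SE 0.24, adjusted p = 0.000770) and from 60.8, 89.7 and 84.8 to 31.8, 29.6 and 40.3 in NCI-N87 cells (log2FC -1.21, SE 0.20, adjusted p = 0.000115). At 24 h it was at 9.15, 11.6 and 6.73 (log2FC -1.81, adjusted p = 3.97e-05), 36.4, 27.5 and 36.8 (-1.39, adjusted p = 5.97e-05) and 18.0, 16.0 and 26.3 CPM (-1.62, adjusted p = 3.57e-07). Afatinib and untreated libraries did not overlap in any of these 6 comparisons. No difference of its effect between the times passed the test in MKN1 (-0.08, adjusted p = 0.966) or MKN7 cells (-0.18, adjusted p = 0.759). In NCI-N87 cells the difference was -0.42, adjusted p = 0.254, and with the replicate number as a block -0.44 (adjusted p = 0.0411).

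IER5, the partner of PP2A and HSF1, showed the reverse order in time in NCI-N87 cells, with a deeper fall at 24 h. In NCI-N87 cells it was at 39.6, 39.3 and 44.3 against 46.9, 56.8 and 57.9 CPM at 4 h, which did not pass the test although the libraries did not overlap (log2FC -0.39, SE 0.16, adjusted p = 0.114). At 24 h it fell from 48.3, 47.6 and 51.6 to 20.2, 18.6 and 28.0 CPM (log2FC -1.18, SE 0.17, adjusted p = 2.58e-06). In MKN7 cells it fell from 115, 89.1 and 96.3 to 91.0, 57.9 and 67.9 CPM at 4 h with overlap (log2FC -0.51, SE 0.18, adjusted p = 0.0433) and from 74.8, 57.7 and 90.9 to 38.0, 29.7 and 37.6 CPM at 24 h (log2FC -1.09, SE 0.18, adjusted p = 3.67e-05). In MKN1 cells it fell to 100.4, 99.8 and 93.0 (log2FC -0.62, adjusted p = 0.000209) and 55.0, 65.3 and 56.1 CPM (-0.88, adjusted p = 3.86e-07), within the limit at either time. The effect at 24 h minus that at 4 h was -0.79 in NCI-N87 cells (SE 0.23, adjusted p = 0.0110, and 0.192 without replicate 1 and 0.0760 without replicate 2). In MKN7 cells the difference of -0.58 did not pass the test (adjusted p = 0.117) but did with the replicate number as a block (-0.55, adjusted p = 2.24e-05) and with no filter (adjusted p = 0.0297). The 24 h calls of IER5 depended on the scaling: with library size alone the log2FC was -0.92 in NCI-N87 and -0.97 in MKN7 cells, and the MKN7 value was -0.99 without replicate 3.

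IER5L stayed below the fold change limit in every afatinib comparison. It rose in MKN7 cells at 24 h, from 0.662, 0.511 and 0.673 to 1.15, 0.856 and 1.23 CPM (log2FC 0.80, SE 0.24, adjusted p = 0.00843), with libraries apart, and fell in MKN1 cells at 24 h from 1.44, 1.87 and 1.74 to 1.31, 1.21 and 0.976 CPM (log2FC -0.54, SE 0.16, adjusted p = 0.0138). In NCI-N87 cells the log2FC was -0.31 at 4 h and 0.02 at 24 h, neither past the test. The IER5L effect at 24 h had opposite signs in MKN1 and MKN7 cells, with a difference of -1.33 (SE 0.37, adjusted p = 0.0115), which rose to 0.170 without replicate 2 and 0.0972 without replicate 3.

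At 4 h, 2 of 7 members were regulated downwards in MKN1 (0.439% of all genes), 3 in MKN7 (1.59%) and 4 in NCI-N87 cells (1.22%). At 24 h the counts were 2 in MKN1 (1.02%), 4 in MKN7 (3.25%) and 4 in NCI-N87 cells (11.5%). Between the times, 3 of 7 members had a different effect in MKN7 cells (18% of all genes) and 3 in NCI-N87 cells (35.8%), which is near the share of all genes in NCI-N87 cells. Scaling by library size alone shifted the median of all genes after 24 h afatinib by 0.26 in NCI-N87 and 0.11 in MKN7 cells, and the share of regulated genes that rose from 61.2% to 77.0% in NCI-N87 cells. At 4 h this share was 35.6% and became 52.9% in MKN1 cells, and 53.3% and became 65.7% in MKN7 cells.

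**Figure D3:**
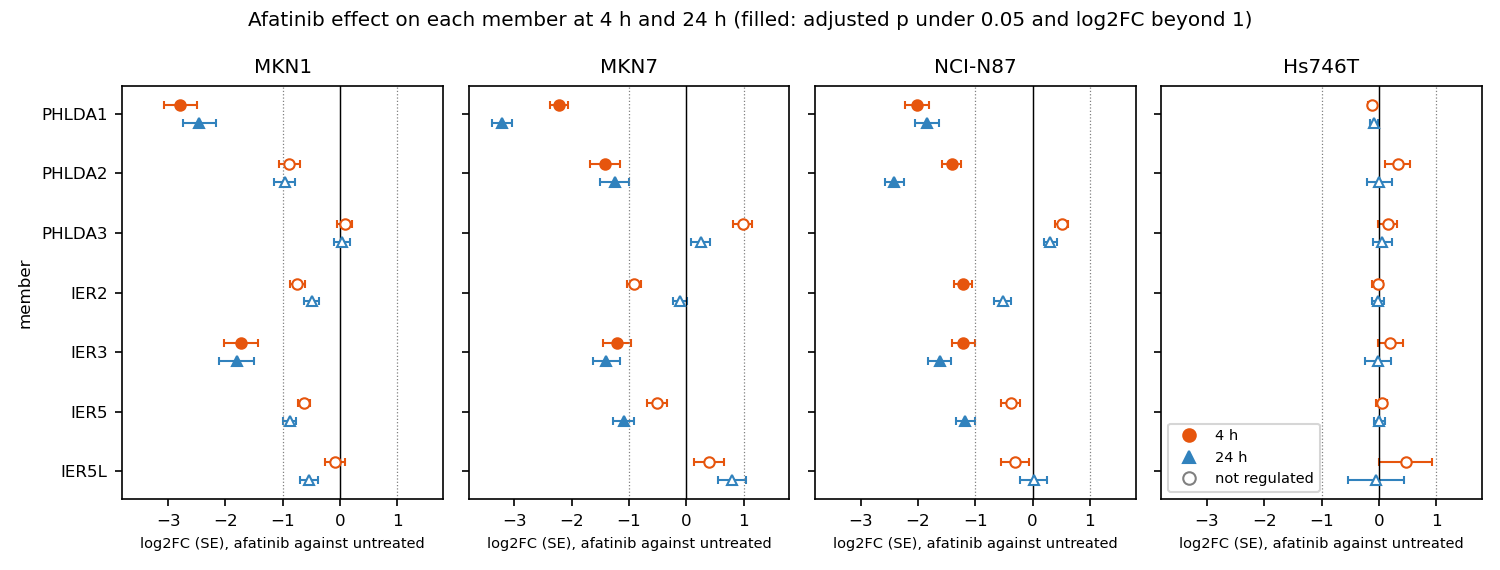
Afatinib against untreated cells, log2FC with its SE on the x axis and the 7 members on the y axis, for 4 h (circles) and 24 h (triangles) in each line, filled where regulated. PHLDA1, IER3 and PHLDA2 lie left of 0 in MKN1, MKN7 and NCI-N87 cells, PHLDA3 right of 0 in MKN7 and NCI-N87 cells at 4 h, and no member is regulated in Hs746T cells.

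No member differed past the test between trastuzumab + afatinib and afatinib alone. After trastuzumab + afatinib, PHLDA1 was at 73.6, 43.4 and 43.9 CPM in NCI-N87 cells at 24 h, against 68.3, 47.3 and 45.2 with afatinib alone (log2FC 0.00, SE 0.21). Of 56 such tests over the 4 lines and both times, edgeR called 0 members regulated, 0 had an unadjusted p under 0.05 and DESeq2 called 0, and 0% of all gene tests were regulated. The log2FC ranged from -0.45 (IER5L, MKN7, 4 h) to 0.17 (IER3, NCI-N87, 4 h). Against untreated cells, trastuzumab + afatinib regulated 2 members downwards in MKN1 (0.49% of all genes), 3 in MKN7 (1.76%) and 4 in NCI-N87 cells at 4 h (1.28%), and 3 in MKN1 (1.12%), 4 in MKN7 (3.28%) and 4 in NCI-N87 cells at 24 h (12.2%). The comparisons of afatinib and of trastuzumab + afatinib share the untreated libraries.

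Several calls after trastuzumab + afatinib lay near the fold change limit. PHLDA3 in MKN7 cells reached 31.7, 30.1 and 39.7 CPM at 4 h (log2FC 1.02, SE 0.17, adjusted p = 0.000111), the 1 member regulated upwards beside 1.95% of all genes, and 0.87 without replicate 3. IER3 in NCI-N87 cells at 4 h (-1.03, adjusted p = 0.000619) had an adjusted p of 0.0680 without replicate 2, where IER2 (-1.21, adjusted p = 7.13e-06) came to -0.93. PHLDA2 in MKN1 cells at 24 h (log2FC -1.001, adjusted p = 0.000120) was at the limit itself, lost its call under 8 of the alternatives, and came to -0.87 with library size alone, -0.90 without replicate 2 and -0.81 without replicate 3, and in MKN7 cells (-1.26, adjusted p = 0.000391) to -0.99 without replicate 3. IER5 in NCI-N87 cells at 24 h (-1.26, adjusted p = 9.84e-07) came to -0.96 with library size alone. Calls were gained by PHLDA2 in MKN1 cells at 4 h (-0.99), with -1.04 without replicate 1 and -1.03 without replicate 2, and by IER2 in MKN7 cells at 4 h (-0.95), with -1.005 without replicate 1.

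Measured against trastuzumab instead of untreated cells, the afatinib effect was of the same order. In MKN1, MKN7 and NCI-N87 cells, 17 of 42 member tests were regulated downwards, beside 2.87% of all gene tests. PHLDA1 had log2FC of -2.78 in MKN1, -1.98 in MKN7 and -2.23 in NCI-N87 cells at 4 h, and of -2.05, -2.89 and -1.60 at 24 h. PHLDA3 rose at 4 h in MKN7 (0.83, adjusted p = 0.000976) and NCI-N87 cells (0.58, adjusted p = 0.000883). IER3 in MKN7 cells at 24 h lost its call without replicate 3 (log2FC -0.99), and the count ranged from 17 to 20 over the alternatives.

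Trastuzumab alone moved no member past the test. Of 56 member tests over the 4 lines and both times, edgeR called 0 regulated, 1 had an unadjusted p under 0.05 and DESeq2 called 0, and 0% of all gene tests were regulated. At 4 h, trastuzumab and untreated libraries still did not overlap in 2 of 7 members in MKN1 and 2 of 7 in NCI-N87 cells. In NCI-N87 cells, the line with the highest ERBB2 level, PHLDA1 was at 208, 212 and 188 against 202, 212 and 139 CPM at 4 h (log2FC 0.14, adjusted p = 1.00) and at 186, 173 and 122 against 205, 207 and 153 CPM at 24 h (-0.24, adjusted p = 1.00). PHLDA2 and IER3 had log2FC of 0.32 and 0.31 in NCI-N87 cells at 4 h (adjusted p = 1.00 and 1.00). In MKN1 cells at 24 h, replicate 1 had the lowest value of the 3 trastuzumab libraries for PHLDA1 (32.97, 53.6 and 116 CPM) and for IER3 (14.3, 26.8 and 37.1 CPM).

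Afatinib and cetuximab, both of which target EGFR, were compared directly. PHLDA1 was lower after afatinib in every library at 4 h (17.6, 20.7 and 17.2 against 25.3, 36.9 and 27.3 CPM) and at 24 h (16.0, 13.8 and 15.05 against 21.9, 25.2 and 23.7 CPM). The log2FC of -0.70 (SE 0.28, adjusted p = 1.00) and -0.66 (SE 0.28, adjusted p = 0.631) did not pass the test. Of 14 member tests, edgeR called 0, 2 had an unadjusted p under 0.05 and DESeq2 called 0, beside 0.0101% of all gene tests. IER3 differed by -0.28 (SE 0.30) at 4 h, and PHLDA2, IER2 and IER5 by -0.16, -0.16 and -0.06.

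In Hs746T cells no member passed the test under any treatment without the replicate block. Of 84 member tests, edgeR called 0 regulated, 0 had an unadjusted p under 0.05, and DESeq2 and each fit without a replicate called 0, while 0% of all gene tests were regulated. Even so, 1 of 7 members did not overlap with untreated cells after 24 h EGF. The same held after 4 h EGF + cetuximab, trastuzumab or trastuzumab + afatinib. PHLDA1 was at 151, 146 and 139 CPM in untreated, 163, 139 and 142 in EGF, 151, 127 and 137 in cetuximab and 141, 117 and 132 in afatinib treated cells at 4 h. IER3 was at 92.5, 69.9 and 64.0, 104, 87.6 and 69.9, 99.6, 87.8 and 72.6 and 105, 84.7 and 63.6 CPM in the same order. Replicate 1 had the highest IER3 level in each of these 4 groups, and the treatments overlapped. With the replicate number as a block, which pairs these libraries, PHLDA2 (0.32, adjusted p = 0.00644) and IER3 (0.19, adjusted p = 0.0450) rose after 4 h afatinib within the fold change limit, 2 of 7 members beside 18.6% of all genes. The blocked log2FC of IER3 was 0.23 after EGF (adjusted p = 0.160) and 0.22 after cetuximab (0.370). For the 6 members other than IER5L the log2FC lay between -0.12 and 0.33, and over all 7 between -0.38 and 0.64, with both ends from IER5L.

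**Figure D4:**
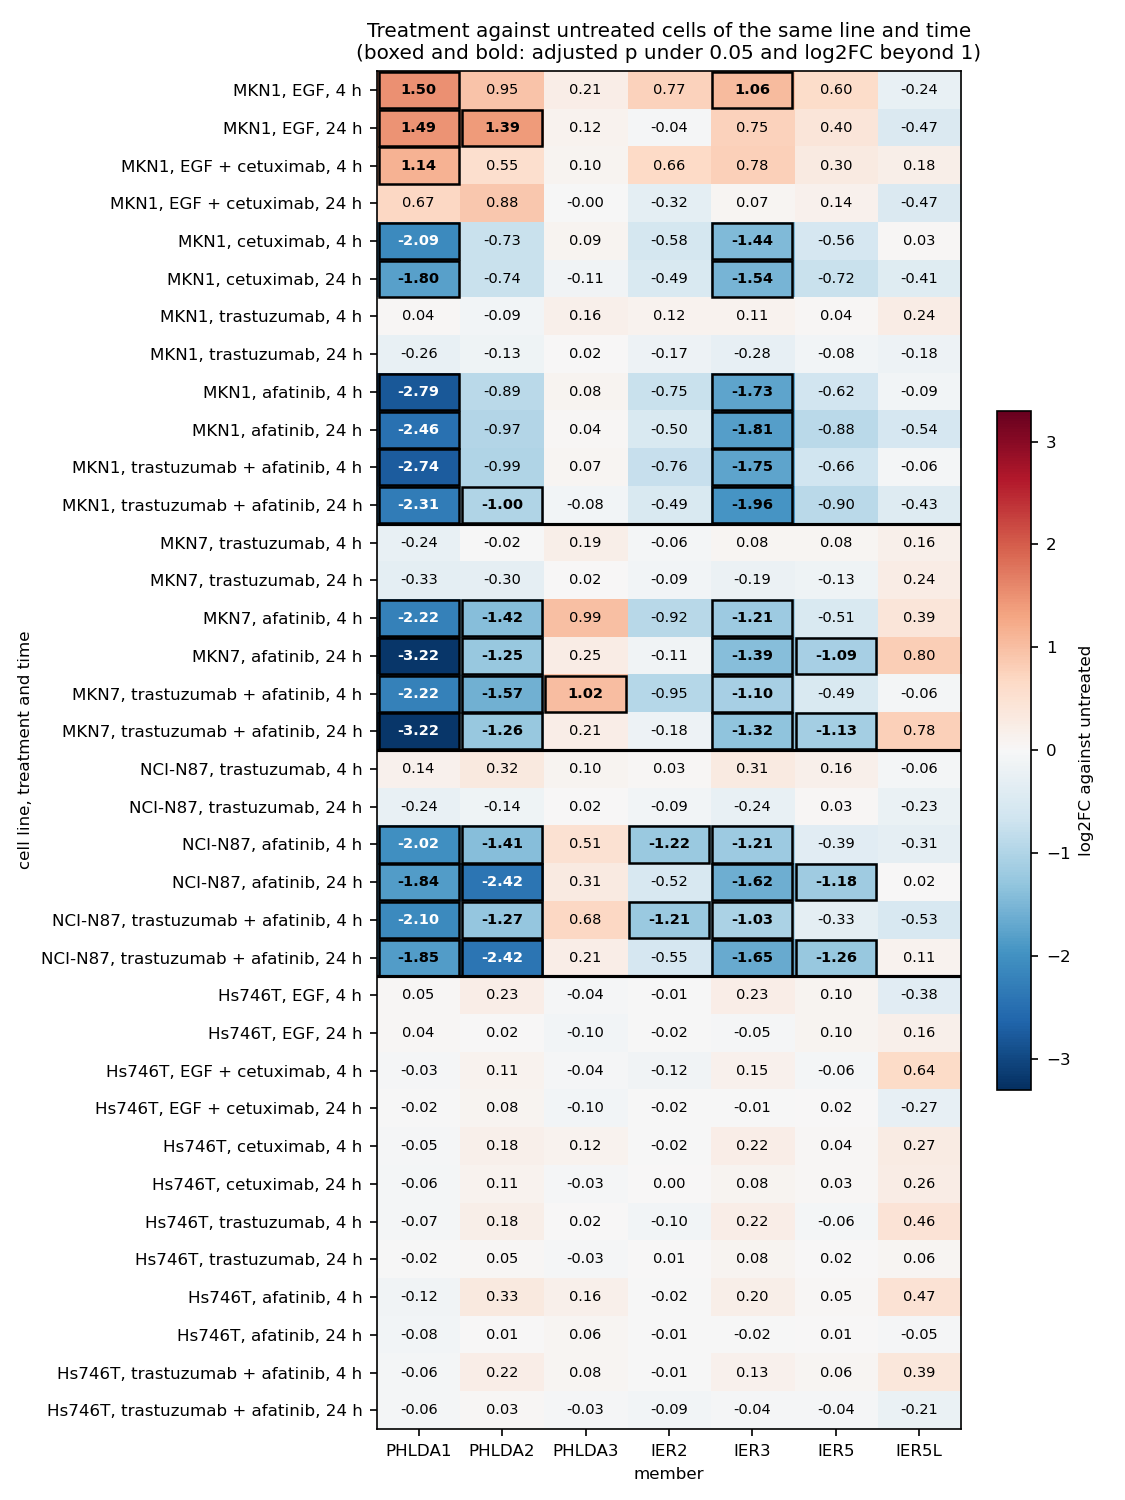
Heat map of the log2FC of 36 treatments against untreated cells (rows, by line, treatment and time) for the 7 members (columns), boxed where regulated. PHLDA1 and IER3 are boxed in every afatinib row of MKN1, MKN7 and NCI-N87 cells, and no cell is boxed in the trastuzumab rows or in Hs746T cells.

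The difference between Hs746T and the other lines was tested itself with interaction contrasts, in a fit of all lines. For afatinib at 4 h, 11 of 21 member tests differed from Hs746T (adjusted p below 0.05), beside 4.14% of all gene tests, and 17 of 21 with the replicate number as a block, beside 19.9%. PHLDA1 differed by -2.62 in MKN1 (adjusted p = 7.48e-10), -2.02 in MKN7 and -1.86 in NCI-N87 cells on the log2 scale. IER3 differed in all 3 lines too (-1.88, -1.34 and -1.38), PHLDA2 and IER2 in MKN7 and NCI-N87 cells, and PHLDA3 in MKN7 cells (0.91, adjusted p = 0.00449). With the block, PHLDA2 (-1.15, adjusted p = 1.05e-07) and IER2 (-0.67, adjusted p = 0.000635) differed in MKN1 cells, IER5 in all 3 lines (adjusted p of 8.00e-05 in MKN1, 0.000665 in MKN7 and 0.00614 in NCI-N87), as did PHLDA3 in NCI-N87 cells (0.0265). Without the block, the calls of IER3 were lost without any single replicate in MKN7 (adjusted p up to 0.118, without replicate 3) and NCI-N87 cells (up to 0.155, without replicate 2) and without replicate 1 (0.0857) or 3 (0.142) in MKN1 cells. Those of PHLDA3 (0.347) and IER2 (0.143) in MKN7 cells were lost without replicate 3. PHLDA1 kept its call in the 3 lines without each replicate.

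At 24 h, 12 of 21 tests differed from Hs746T, beside 19.4% of all gene tests, and 14 with the block, beside 35.4%. The largest differences were those of PHLDA1, with -2.36 in MKN1, -3.14 in MKN7 and -1.74 in NCI-N87 cells, where PHLDA2 differed more (-2.39). Without replicate 3, IER3 in MKN1 (0.310) and MKN7 cells (0.169), IER5 in MKN1 (0.371), PHLDA2 in MKN7 (0.124) and IER2 in NCI-N87 cells (0.303) no longer passed, and IER2 in NCI-N87 cells also not without replicate 2 (0.0930), with DESeq2 (0.127) or with library size alone (0.288, log2FC difference -0.25 instead of -0.48).

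Among MKN1, MKN7 and NCI-N87 cells, 1 of 21 member tests differed at 4 h, beside 1.41% of all gene tests, which was PHLDA3 with -0.93 for MKN1 minus MKN7 (SE 0.22, adjusted p = 0.00945, and 0.0594 without replicate 2 and 0.612 without replicate 3). With the replicate number as a block, 7 of 21 differed, beside 9.89%. They added PHLDA1 (-0.75, adjusted p = 0.0173), PHLDA2 (0.55, 0.0163), PHLDA3 (-0.40, 0.0373) and IER2 (0.50, 0.0136) for MKN1 minus NCI-N87, PHLDA2 for MKN1 minus MKN7 (0.53, 0.0329) and PHLDA3 for MKN7 minus NCI-N87 (0.52, 0.00783). At 24 h, 4 of 21 differed, beside 19% of all gene tests, which is no more than the background. PHLDA1 fell deeper in MKN7 than in NCI-N87 cells (-1.40, SE 0.29, adjusted p = 9.79e-05), while PHLDA2 fell deeper in NCI-N87 than in MKN1 (difference 1.43, adjusted p = 0.000125) and MKN7 cells (1.14, adjusted p = 0.00384, and 0.0896 without replicate 1 and 0.0515 without replicate 2). For MKN1 minus MKN7, PHLDA1 differed without replicate 3 (1.17, adjusted p = 0.00692). With the block, 9 of 21 differed at 24 h, beside 36.1%. Without 1 replicate, the number of all 84 afatinib interactions that passed fell from 28 to between 17 and 24.

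The EGF and cetuximab effects were compared between MKN1 and Hs746T in the same way. For EGF, 4 of 14 member tests differed (4.42% of all gene tests), namely PHLDA1 at 4 h (1.46) and 24 h (1.41), IER2 at 4 h (0.79) and PHLDA2 at 24 h (1.34). For cetuximab, 4 of 14 differed (0.197% of all gene tests), namely PHLDA1 (-2.02 at 4 h and -1.74 at 24 h) and IER3 (-1.64 and -1.62). With the replicate number as a block, 8 EGF tests (16.3% of all gene tests) and 10 cetuximab tests (8.09%) differed. At 4 h these added PHLDA2 (0.000527 for EGF and 0.000122 for cetuximab, adjusted p), IER5 (0.00114 and 0.000474), IER3 for EGF (0.00478) and IER2 for cetuximab (0.0184). Without replicate 2 the adjusted p of the EGF differences was 0.194 and 0.0778 for PHLDA1 at 4 h and 24 h and 0.0647 for PHLDA2 at 24 h, and IER2 lost its call without any single replicate (up to 0.260, without replicate 3). IER3 lost its cetuximab calls without replicate 1 (0.361 at 4 h), 2 (0.145 at 24 h) or 3 (0.823 at 4 h and 0.829 at 24 h), while PHLDA1 kept them. The number of calls then fell from 8 to between 3 and 6.

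Genes of the pathways around the members were counted from lists of known targets. Of 14 tested genes that ERK switches on as feedback or targets, 11 were regulated downwards in MKN1, 11 in MKN7 and 12 in NCI-N87 cells given afatinib for 4 h, with median log2FC of -1.30, -1.99 and -1.66 beside 0.01, 0.01 and 0.02 for all genes, and none upwards. The largest in each line were DUSP6, an ERK phosphatase (-3.36 in MKN1, -4.01 in MKN7 and -4.77 in NCI-N87), and SPRY4, an inhibitor of RAS signalling (-3.76, -5.21 and -3.94). At 24 h, 12, 12 and 13 of 14 were regulated downwards, and 1 upwards in MKN7 cells. The shares of all genes regulated downwards were 0.439%, 1.59% and 1.22% at 4 h and 1.02%, 3.25% and 11.5% at 24 h. After EGF in MKN1 cells, 5 were regulated upwards at 4 h and 7 at 24 h, and after cetuximab 7 downwards at each time.

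Members of the list of other immediate early genes were also regulated. After 4 h afatinib, 8 of 23 tested were regulated downwards in MKN1, 7 of 23 in MKN7 and 7 of 22 in NCI-N87 cells, with medians of -0.84, -0.64 and -0.68. EGR1, a zinc finger factor, had log2FC of -3.59 in MKN1, -2.40 in MKN7 and -4.60 in NCI-N87 cells at 4 h. After EGF, 7 of 23 were regulated upwards at 4 h (1.23% of all genes), led by EGR2 (1.96) and EGR3 (1.82). At 24 h, 3 were regulated upwards and EGR2 downwards (-1.69).

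Most p53 targets on the list were not regulated after afatinib in MKN1, MKN7 or NCI-N87 cells. Of 12 tested, 0 were regulated upwards and 2 downwards after 4 h afatinib in MKN7 cells, AEN (-1.999), a nuclease, and CDKN1A (-1.49), a CDK inhibitor, with a median of -0.09. By the adjusted p alone, 1 rose with PHLDA3 (BBC3, a pro-apoptotic BH3-only protein) and 3 fell (AEN, CDKN1A and ZMAT3). In NCI-N87 cells 1 was regulated upwards, BBC3 (1.78), and 2 downwards, and by the adjusted p alone 2 rose (BBC3 and SESN1) and 4 fell (AEN, CDKN1A, FAS and GDF15). Of all genes, 1.59% were regulated downwards in MKN7 and 1.22% in NCI-N87 cells. At 24 h, 2 p53 targets were regulated downwards in MKN7 (3.25% of all genes) and 3 in NCI-N87 cells (11.5%), where 1 was regulated upwards. By the adjusted p alone, 2 rose and 4 fell in MKN7, and 2 rose and 6 fell in NCI-N87 cells at 24 h. Of the HSF1 targets, which bear on IER5, 3 of 8 were regulated downwards (11.5% of all genes) and 1 upwards in NCI-N87 cells given afatinib for 24 h. The largest were HSPD1 (-1.45), HSPA8 (-1.31) and HSPB1 (1.22), and none was regulated in MKN1 or MKN7 cells. By the adjusted p alone, 4 fell in MKN1, 4 in MKN7 and 5 in NCI-N87 cells, where 1 rose. Of all gene tests in these 3 lines at 24 h, 23% were lower by that measure. Of the NF-kB targets, which bear on IER3, 3 of 9 were regulated downwards in MKN1, 1 in MKN7 and 2 in NCI-N87 cells at 4 h, led by the chemokine gene CXCL8 in MKN1 (-1.98) and NCI-N87 cells (-4.00). The shares of all genes were 0.439%, 1.59% and 1.22%. At 24 h the counts were 1, 2 and 3, beside 1.02%, 3.25% and 11.5%, and 1 was regulated upwards in NCI-N87 cells. The list medians at 24 h were 0.07 in MKN1, -0.28 in MKN7 and -0.70 in NCI-N87 cells. By the adjusted p alone, 1 rose in each line at 24 h.

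The neighbours of PHLDA2 in the imprinted 11p15 region were counted in the same way. Of 6 tested, none was regulated downwards by afatinib alone in MKN1, MKN7 or NCI-N87 cells. By the adjusted p alone, 1 fell at 4 h in MKN7 cells (NAP1L4), and at 24 h 2 fell in MKN1 (CARS and NAP1L4), 3 in MKN7 (CARS, NAP1L4 and TSSC4) and 2 in NCI-N87 cells (NAP1L4 and TSSC4). The genes named by the adjusted p alone were chosen after their values were seen. CDKN1C, an imprinted CDK inhibitor of the same region, rose in MKN7 (2.05 at 4 h and 2.44 at 24 h) and NCI-N87 cells (1.99 and 2.79). SLC22A18 rose at 24 h in both lines (1.27 and 1.07). KCNQ1 rose in NCI-N87 cells at 24 h (1.61). At 24 h, 2 of 6 neighbours were thus regulated upwards in MKN7 and 3 of 6 in NCI-N87 cells. Of all genes, 1901 of 18483 and 3457 of 19078 were regulated upwards in these lines. At 4 h it was 1 of 6 neighbours in each, beside 335 and 387 genes. By the adjusted p alone, more neighbours rose within the fold change limit. In MKN1 cells these were CDKN1C at 4 h and SLC22A18 at 24 h, and in MKN7 cells KCNQ1 at 24 h. In NCI-N87 cells they were CARS, KCNQ1 and SLC22A18 at 4 h. The medians of the list in NCI-N87 cells were 0.42 and 0.46, beside 0.02 and 0.03 for all genes.

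The genes whose log2FC over the 36 treatment comparisons was most like that of a member are given as a description, since the comparisons share untreated libraries and 12 of them come from Hs746T cells. Pearson's r was taken over 15748 genes tested in all lines. Nearest to PHLDA1 were C15orf39 (r = 0.97), MAFF, a small bZIP factor (0.97), and AREG, the EGFR ligand amphiregulin (0.95). Nearest to IER3 were AREG (0.98), MAFF (0.98) and ERRFI1, a feedback inhibitor of EGFR (0.97). AREG and MAFF thus stood on both lists, and PHLDA1 and IER3 had r = 0.95 with each other.

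PHLDA2 was nearest to EIF5A2 (0.99), MAP2K3 (0.99) and TOP1 (0.98). IER5 was nearest to SPRY4-AS1 (0.95) and ARPC5L (0.95). IER2 was nearest to MIR222HG (0.92), BHLHE40 (0.90) and ZC3H12A (0.90). PHLDA3 was nearest to ZNF740 (0.93), EPS8 (0.91) and KIF3C (0.89), for which Spearman's rho was 0.77, 0.55 and 0.31. IER5L was nearest to LINC01547 with an r of 0.76, PRKCH (0.75) and HSD17B14 (0.74), the lowest values of the 7. Among the members, r was 0.87 between PHLDA1 and PHLDA2 and 0.93 between IER3 and IER5. PHLDA3 had negative r with PHLDA1 (-0.39), PHLDA2 (-0.50) and IER2 (-0.55), and IER5L stood near 0 with PHLDA1 (-0.10) and IER5 (-0.13).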

How the data were processed

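Messenger RNA purified from the total RNA of 132 cell line samples was sequenced. The raw counts per gene (1 column a library, whole numbers, not normalized) were deposited by the authors. The submitters' processing notes name Trim Galore, STAR and hg38. The counting tool, its strand setting and its annotation were not given in the sources used here. Identifiers were named with GENCODE 29, in which 8404 identifiers (0.0422% of counts) were not found. The members and the lists of other genes were chosen with earlier results of these data known.

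Genes were kept by filterByExpr (minimum count 10, minimum total count 15) within each cell line, which left 18483 (MKN7) to 19815 (MKN1) genes, and 22832 in the fit of all lines. Counts were scaled by TMM and tested with edgeR 4.0.16 (glmQLFit and glmQLFTest) in R 4.3.3, with 1 mean per line, treatment and time and Benjamini-Hochberg adjustment over all genes tested. CPM uses TMM library sizes. The fits were tested on simulated data. Alternatives were DESeq2 1.42.0, library size as the only scaling, no filter on counts, a minimum of 10 counts per library, only the groups compared, leaving out each replicate number in turn, and the replicate number as a block. Total counts of 25832557 to 69434151 per library set the precision, and 3 counts were taken as the limit of detection.

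Same-numbered libraries of a line and time deviated together from their group means in most pairs. The lowest r of a pair at 4 h and 24 h was 0.196 and 0.313 in MKN7, 0.204 and 0.155 in NCI-N87, 0.248 and -0.018 in MKN1 and 0.109 and 0.272 in Hs746T cells. By a limit of 0.1 on this lowest r, the numbers pair the libraries of every line and time but MKN1 at 24 h. The main fits did not use this pairing. The replicate block was only an alternative, and it covered every line and time, MKN1 at 24 h included.

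Text names the 7 members throughout, the drug targets and cell type markers by level, at most 3 regulated genes with the largest absolute log2FC per list and comparison, and the 3 genes most like each member by Pearson's r, of which 1 is not reported here. Promoter sequences are RefSeq's (GRCh38.p14).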

Additional observations from a re-analysis of the deposited data

Results flagged for a closer look

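The effect of a treatment differed between cell lines or times, by the interaction contrast in edgeR with an adjusted p below 0.05, in 43 cases. They are 28 of 84 tests of afatinib between lines, 8 of 28 of EGF and cetuximab and 7 of 56 between times. Of all gene tests, 4.14% at 4 h and 19.4% at 24 h differed for afatinib against Hs746T, and 1.41% and 19% among the other lines. For EGF and cetuximab the shares were 4.42% and 0.197%. Between the times they were 9.46% for EGF in MKN1 cells, and 18% and 35.8% for afatinib in MKN7 and NCI-N87 cells. All values are differences of log2FC, with p adjusted over all genes tested.

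Against Hs746T cells, the 4 h afatinib effect on PHLDA1 differed by -2.62 in MKN1 cells, -2.02 in MKN7 cells and -1.86 in NCI-N87 cells, and at 24 h by -2.36, -3.14 and -1.74. The effect on IER3 differed by -1.88, -1.34 and -1.38 at 4 h and by -1.77, -1.36 and -1.57 at 24 h in the same order of lines. The effect on PHLDA2 differed by -1.67 in MKN7 and -1.71 in NCI-N87 cells at 4 h and by -1.26 and -2.39 at 24 h. The effect on IER2 differed by -0.82 in MKN7 and -1.16 in NCI-N87 cells at 4 h and by -0.48 in NCI-N87 cells at 24 h, which did not pass with DESeq2, with library size alone or without replicate 2 or 3. PHLDA3 differed by 0.91 in MKN7 cells at 4 h. IER5 differed at 24 h by -0.88 in MKN1, -1.10 in MKN7 and -1.15 in NCI-N87 cells.

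Among the other lines, the 4 h afatinib effect on PHLDA3 differed by -0.93 for MKN1 minus MKN7. At 24 h, IER5L differed by -1.33 for MKN1 minus MKN7, PHLDA1 by -1.40 for MKN7 minus NCI-N87, and PHLDA2 by 1.43 for MKN1 and 1.14 for MKN7, each minus NCI-N87. For MKN1 minus Hs746T, the EGF effect differed by 1.46 for PHLDA1 and 0.79 for IER2 at 4 h and by 1.41 for PHLDA1 and 1.34 for PHLDA2 at 24 h. The cetuximab effect differed by -2.02 for PHLDA1 and -1.64 for IER3 at 4 h and by -1.74 and -1.62 at 24 h.

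Between the times, the effect at 24 h minus that at 4 h was -0.81 for IER2 after EGF in MKN1 cells. After afatinib in MKN7 cells it was -0.9999 for PHLDA1, -0.74 for PHLDA3 and 0.81 for IER2. After afatinib in NCI-N87 cells it was -1.003 for PHLDA2, 0.69 for IER2 and -0.79 for IER5.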

How the results depend on the processing

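With the replicate number as a block, the afatinib effect differed between lines in 47 of 84 member tests, against 28 without it, and the EGF and cetuximab effects in 18 of 28, against 8. The block also raised the share of all gene tests, for afatinib against Hs746T from 4.14% to 19.9% at 4 h and from 19.4% to 35.4% at 24 h. Among the other lines it went from 1.41% to 9.89% and from 19% to 36.1%. For EGF it went from 4.42% to 16.3% and for cetuximab from 0.197% to 8.09%. Leaving out 1 replicate gave 17 to 24 and 3 to 6 calls, and for untreated 24 h against 4 h 1 to 2 and for the effect at 24 h minus that at 4 h 3 to 5. The block changed 1 call against untreated cells, PHLDA2 in MKN1 cells after 24 h trastuzumab + afatinib (-0.97), gave 48 regulated of 252 member tests, against 49, added 2 calls to the 7 effects that differed between the times, and changed no other call by these criteria. With no filter 8 effects differed between the times. Against untreated cells, 44 to 51 member tests were regulated under the alternatives. Untreated cells differed in 53 to 64 of 84 tests, against 62. In these member tests no value that passed changed its sign under an alternative. Of the 21 genes most like a member, 3 were also among the nearest with Spearman's rho and 13 without Hs746T. With library size alone, 3 of 56 member levels in untreated groups moved by more than 1 SD, and the share of regulated genes that rose after 24 h trastuzumab + afatinib went from 61.3% to 78.9% in NCI-N87 and from 73.7% to 85.1% in MKN1 cells. Among the interactions, the share above 0 for EGF in MKN1 minus Hs746T cells at 24 h went from 48.01% to 21.8% and for afatinib in NCI-N87 minus Hs746T cells at 24 h from 45.4% to 61.5%. Depth limits IER5L most, which held 2 to 93 counts per library. Leaving out a replicate leaves 2 libraries per group, and the cause of the other shifts was not tested.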

Other observations

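Further genes of the lists are given with the same edgeR test. AEN, a p53-induced nuclease, fell after 24 h afatinib in MKN1 (log2FC -1.19), MKN7 (-1.48) and NCI-N87 cells (-3.20), and rose after 24 h EGF in MKN1 cells (1.00). CDKN1A rose after 4 h EGF in MKN1 cells (1.75). The chemokine gene CXCL8 rose after EGF in MKN1 cells (1.97 at 4 h and 1.68 at 24 h) and fell after 4 h cetuximab (-1.78). CXCL1, another chemokine gene, rose after 4 h EGF (1.61) and fell after 4 h cetuximab (-1.66).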
